A study of Rattus norvegicus with 6 samples.

Results

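The miR-15/16 family is a group of miRNAs whose 5p arms share AGCAGC at bases 2 to 7. These bases are the core of the seed, the stretch of bases 2 to 8 with which a miRNA finds its target mRNAs. Its rows were taken by name from the count table of mature miRNAs, not by any measured value: every row with the stem miR-15a, miR-15b, miR-16, miR-195, miR-497, miR-322 or miR-503, either arm. The rule found 13 of 650 rows, of which 7 are 5p arms and 6 are the opposite 3p arms. All 6 samples were miRNA-seq libraries of the ipsilateral trigeminal ganglion, where facial sensory neurons have their cell bodies. The rats were Sprague-Dawley, aged 8 to 10 weeks, and the tissue was taken 14 days after surgery. In the CCI-ION group (3 libraries) loose silk ligatures were tied around the left infraorbital nerve, a chronic constriction injury used as a model of trigeminal neuropathic pain. In the sham group (3 libraries) the same nerve was exposed but not tied. The labels state no genetic change, sex or drug other than the anaesthesia. Whether the libraries stem from different rats is not stated, so the p-values speak only of variation among these 6 libraries, and part of it may be technical.

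Members of this family restrain the cell cycle and cell survival in many mammalian cells. Known targets include the mRNAs of cyclins D1 and E1, Chek1 and Bcl2, and loss of the miR-15a/16-1 locus is a frequent lesion in human chronic lymphocytic leukaemia. In the mouse, miR-195 rises as heart muscle cells leave the cell cycle after birth, and miR-322 and miR-503 promote exit from the cycle during muscle differentiation. miR-16 is expressed in most tissues, is abundant in red blood cells and has often served as a reference in miRNA assays.

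The sequences show what joins the family and where its members part. Bases 2 to 8 are in capitals, all sequences are 5′ to 3′, and miR-16-5p, the most abundant member, comes first. The prefix rno- marks a rat miRNA and is left out afterwards.
rno-miR-16-5p: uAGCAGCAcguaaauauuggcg
rno-miR-195-5p: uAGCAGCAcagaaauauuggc
rno-miR-497-5p: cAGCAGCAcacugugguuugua
rno-miR-15b-5p: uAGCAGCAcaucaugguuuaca
rno-miR-15a-5p: uAGCAGCAcauaaugguuu
rno-miR-322-5p: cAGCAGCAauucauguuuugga
rno-miR-503-5p: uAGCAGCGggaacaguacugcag
The seed AGCAGCA was carried by 6 rows. The other, miR-503-5p, differs from miR-16-5p within the seed by A8G, counted from 1 at the 5′ end. No other of the 650 rows has AGCAGC at bases 2 to 7, so the name rule and this 6-base core pick the same 5p rows. All 12 members listed in RefSeq's rat annotation (build GRCr8) had sequences identical to the deposited ones. miR-15a-5p was not matched there, and its sequence is the deposited one of 19 bases.

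The 3p arms have no part in this seed, and each has a seed of its own. They are shown for the members in which both arms could be counted.
rno-miR-195-3p: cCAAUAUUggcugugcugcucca
rno-miR-15b-3p: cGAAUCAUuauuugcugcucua
rno-miR-322-3p: aAACAUGAagcgcugcaaca
rno-miR-503-3p: gGAGUAUUguuuccgcugccugg

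The 12 members matched in the RefSeq annotation (GRCr8) lie in 3 small clusters, and miR-15a-5p was not placed. miR-15b-5p (chr2:155555197-155555218) and miR-16-5p (chr2:155555343-155555364) lie on the plus strand within Smc4, a gene for a condensin subunit. miR-497-5p (chr10:55450172-55450193) and miR-195-5p (chr10:55450509-55450529) lie on the plus strand, with 255 bases between their precursors. miR-322-5p (chrX:137726198-137726219) and miR-503-5p (chrX:137725899-137725921) lie on the minus strand with 220 bases between their precursors, in a cluster that continues with miR-351, miR-542, miR-450b and miR-450a over 5309 bases. An uncharacterised long non-coding RNA, LOC102550366, covers miR-322 and miR-503.

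The libraries held 11014970, 6420434 and 7694056 miRNA counts in CCI-ION libraries 1 to 3, and 12560545, 10135844 and 10084327 in sham libraries 1 to 3. Both libraries numbered 1 stood apart, with totals behind the deposited RPM of 24259518 (CCI-ION) and 24025572 (sham), against 13793797 to 15228984 in the other 4. Summed levels of 5 sensory neuron miRNAs (miR-183-5p, miR-182, miR-96-5p, miR-124-3p and miR-9a-5p) were 44157 to 59173 CPM in CCI-ION libraries and 46310 to 59231 CPM in sham libraries, so markers of the labelled tissue were present. In bulk tissue, fewer cells of a type and less RNA per cell cannot be told apart. Summed levels of 4 leukocyte miRNAs did not overlap between groups, at 254 to 312 CPM in CCI-ION and 206 to 251 CPM in sham libraries, and with the replicate block 1 of the 4 rose. Those of 4 erythroid (407 to 799 CPM in CCI-ION, 285 to 771 CPM in sham), 4 fibroblast and mural (24272 to 40626, and 23673 to 33808), 3 glial (5412 to 6103, and 5245 to 5947), 2 endothelial (10952 to 15330, and 10373 to 14748) and 3 muscle miRNAs (89.5 to 189, and 162 to 223) overlapped. At least 1 count was found in some library for each listed marker. Of the 3 glial markers only 2 had enough counts to be tested, and a glial marker had 0 counts in at least 1 library. With the block 1 neuronal and 1 muscle marker fell and no other marker of these lists was called. The same fit called 54 of all 463 tested miRNAs (11.7%). Among single tested miRNAs, 31 of 463 (6.7%) were higher in CCI-ION without overlap in CPM. The marker sums were taken in CPM only, not in deposited RPM. The part of any of these cell types in the results was not tested.

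Levels are given as CPM, miRNA counts relative to a library size corrected with TMM factors, a scale that sets the bulk of miRNAs equal between libraries. RPM is the deposited unit, relative to a larger read total of each library. Each read covers a whole mature miRNA, so a level needs no division by length, though cloning efficiency differs between sequences. miR-16-5p had 1084, 1315 and 1199 CPM in CCI-ION libraries 1 to 3 and 1006, 1234 and 1224 CPM in sham libraries 1 to 3. The groups overlapped, and within each group library 1 was lowest. It ranked between 61st and 70th among the 650 rows in every library. miR-195-5p had 233, 251 and 221 CPM in CCI-ION libraries and 208, 230 and 239 CPM in sham libraries, again with overlap. It was the second most abundant member in all 6 libraries, and the count of miR-16-5p was 4.66 to 5.42 times its own. The sequences of these 2 members differ at 2 of 21 bases (G10A and U11G from miR-16-5p to miR-195-5p), so their counts are uncertain if reads with mismatches were accepted.

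**Figure D1:**
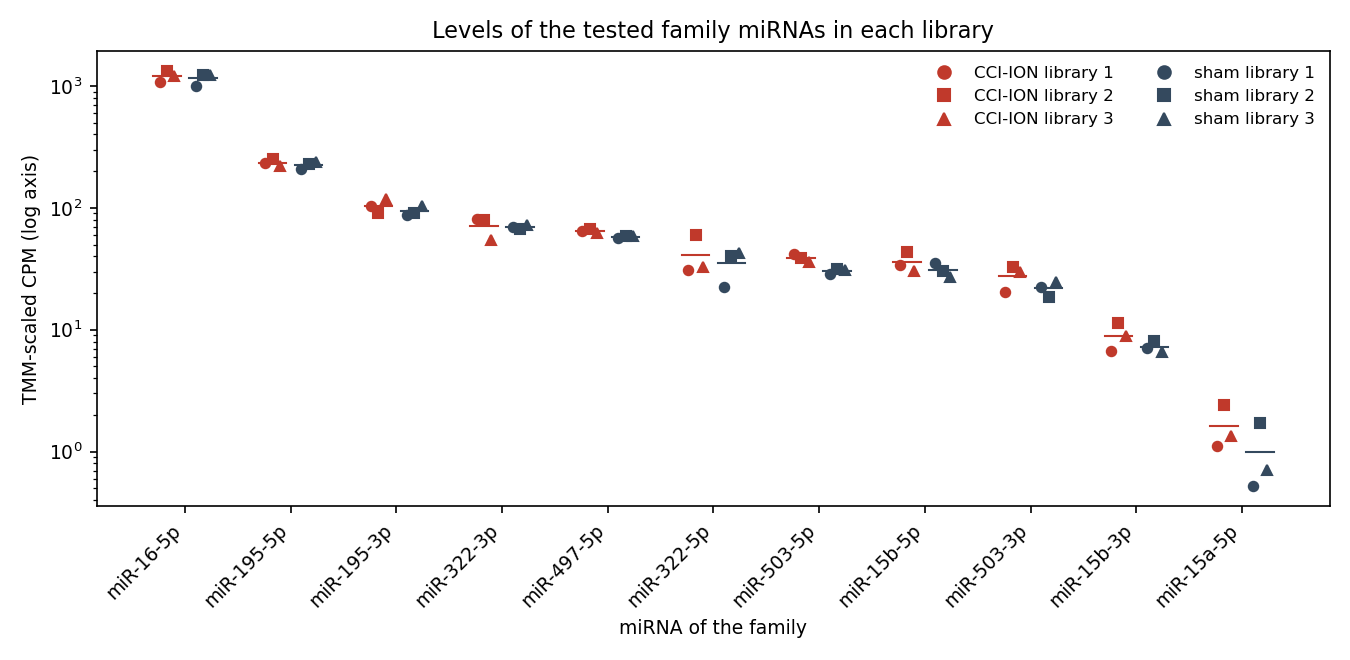
Levels of the 11 tested members of the miR-15/16 family (TMM-scaled CPM, log axis), with a point per library, CCI-ION left and sham right of each tick, and a bar at the mean of 3 libraries. miR-16-5p stands at 1006 to 1315 CPM, above all other members, and miR-503-5p and miR-497-5p are the members whose groups do not overlap.

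The other members were lower still. Below miR-195-5p came miR-195-3p (87.4 to 117 CPM over all 6 libraries), miR-322-3p (54.6 to 81.0 CPM), miR-497-5p (56.3 to 67.2 CPM), miR-322-5p (22.6 to 59.5 CPM), miR-503-5p (28.8 to 42.2 CPM), miR-15b-5p (27.0 to 43.1 CPM), miR-503-3p (18.4 to 32.7 CPM) and miR-15b-3p (6.53 to 11.3 CPM). Neighbours in this order were not all distinct: miR-322-3p exceeded miR-497-5p in 5 of 6 libraries, miR-322-5p exceeded miR-503-5p in 3 of 6, and miR-503-5p exceeded miR-15b-5p in 4 of 6. Each of the other pairs of neighbours down to miR-15a-5p kept its order in 6 of 6 libraries. miR-15a-5p was near the limit of counting, with 13, 15 and 10 counts in CCI-ION libraries and 7, 17 and 7 counts in sham libraries. It differs from miR-15b-5p at 1 of 19 bases, so its few counts are uncertain. miR-16-3p had 1 to 5 counts a library, and miR-497-3p had 1 count in CCI-ION library 2, 1 count in sham library 1 and 0 in the other 4, where a floor of 3 counts is 0.259 and 0.404 CPM in CCI-ION libraries 1 and 3, and 0.305 and 0.301 CPM in sham libraries 2 and 3. Both 3p rows missed the filter on low counts, so 11 of the 13 members were tested.

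miR-16-5p made up most of the 5p reads of the family. Its share of the counts of the 7 5p members was 72.8%, 74.0% and 75.8% in CCI-ION libraries and 74.1%, 75.8% and 75.4% in sham libraries, with overlap. miR-195-5p held 14.6% ± 0.907 in CCI-ION and 14.7% ± 0.608 in sham libraries (SD, n = 3 each). miR-497-5p held 4.01% ± 0.288 and 3.80% ± 0.302, in the same order of groups. miR-322-5p, miR-503-5p and miR-15b-5p held 1.66% to 3.35% each, and miR-15a-5p 0.0387% to 0.136%, over all 6 libraries. All 13 rows together held 0.182% ± 0.01001 of miRNA counts in CCI-ION and 0.173% ± 0.00869 in sham libraries (SD, n = 3 each), a difference smaller than either SD. Of the total behind the RPM they held 0.0888% ± 0.00768 in CCI-ION and 0.108% ± 0.0191 in sham libraries.

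The comparison of CCI-ION with sham asked whether the family differs in the injured-side ganglion 14 days after nerve constriction. No member was called by edgeR's quasi-likelihood test at a Benjamini-Hochberg adjusted p under 0.05 over all 463 tested miRNAs. The same test called 3 of the 463 (0.648%). Libraries with the same number deviated together, and a fit with the number as a block called 54 of 463 (11.7%) but again 0 of 11 members, with adjusted p-values between 0.106 and 0.964. DESeq2 and limma-voom, each with and without the block, also called 0 of 11 members. At an unadjusted p under 0.05, edgeR without the block had 1 of 11 members, miR-503-5p, against 46 of 463 (9.94%) of all tested miRNAs.

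All 11 tested members had log2 fold changes (CCI-ION over sham) above 0, from 0.04 for miR-322-3p to 0.70 for miR-15a-5p, with a median of 0.20. Leaving out 1 library at a time moved the value of miR-15a-5p between 0.35 (without CCI-ION library 2) and 1.36 (without sham library 2). It moved the median between 0.11 (without CCI-ION library 2) and 0.28 (without CCI-ION library 3). The number of members above 0 was then 8 without CCI-ION library 2, 9 without sham library 1, 10 without CCI-ION library 1 and 11 without each of the others. Over all 463 tested miRNAs 51.2% were above 0 and the median was 0.01. DESeq2 and limma-voom also put all 11 members above 0, but this common sign was not kept on every scale. With the totals behind the deposited RPM as the scale instead, the median of all miRNAs was -0.34 and the median of the members was -0.18. There 9 of the 11 members were below 0, as were 393 of all 463 tested miRNAs. Members that share a precursor or near-identical bases are not independent of each other. Members whose groups did not overlap with CCI-ION higher on the CPM scale were 2 of 11, against 6.7% of all tested miRNAs. On the deposited RPM scale 1 of 11, miR-322-3p, was lower in CCI-ION without overlap, against 29.4% of all tested miRNAs.

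**Figure D2:**
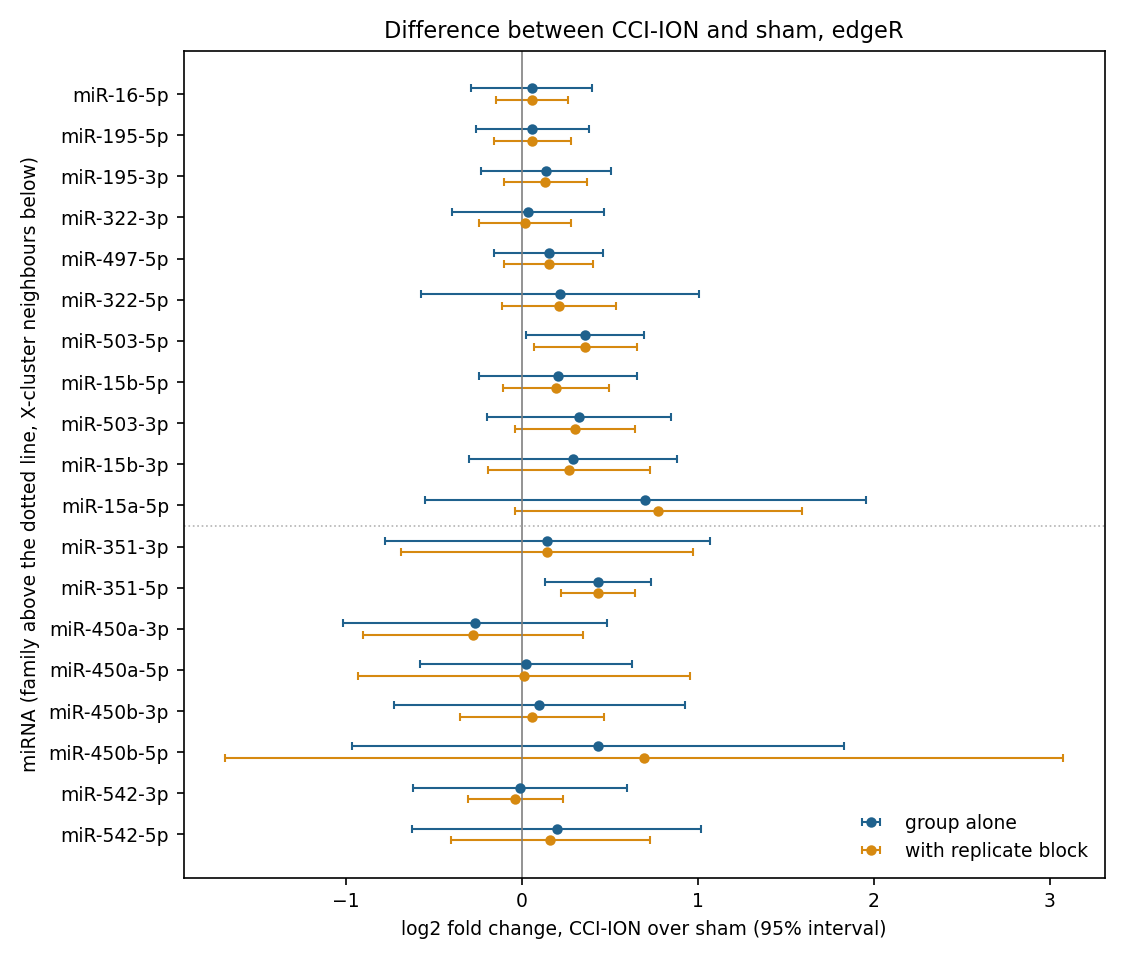
Log2 fold change of CCI-ION over sham from edgeR with its 95% interval, for the fit on group alone (upper point of each row) and with the replicate block (lower point), for 11 members of the family and 8 neighbours of miR-322 and miR-503. Among the members, the interval of miR-503-5p alone lies above 0 (0.02 to 0.69 without the block, unadjusted), and among the neighbours that of miR-351-5p does (0.13 to 0.73).

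miR-503-5p, the member with the changed seed base, had the smallest p-value of the family. Its levels were 42.2, 38.6 and 36.2 CPM in CCI-ION libraries 1 to 3 and 28.8, 31.6 and 30.8 CPM in sham libraries 1 to 3. Each CCI-ION library was above each sham library, so the groups did not overlap. The means were 39.0 ± 3.00 CPM in CCI-ION and 30.4 ± 1.40 CPM in sham (SD, n = 3 each). The log2 fold change was 0.36 ± 0.14 (SE). The edgeR p was 0.0389 before and 0.482 after Benjamini-Hochberg adjustment, and with the replicate block 0.0174 and 0.106. Leaving out 1 library at a time moved the fold change between 0.30 (without CCI-ION library 1) and 0.42 (without CCI-ION library 3). In deposited RPM the difference was not seen: 20.2, 17.1 and 19.5 RPM in CCI-ION against 15.98, 20.4 and 20.3 RPM in sham libraries, with overlap. Under that scaling its log2 fold change was 0.01, and the median of all tested miRNAs was -0.34. The summed leukocyte miRNAs above also separated the groups on the CPM scale. Their part in this difference was not tested.

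miR-497-5p, which in the mouse acts with miR-195 in muscle stem cells and bone vessels, was the other member without overlap. It had 64.5, 67.2 and 61.7 CPM in CCI-ION libraries and 56.3, 59.2 and 58.5 CPM in sham libraries. The means were 64.5 ± 2.75 CPM in CCI-ION and 58.0 ± 1.51 CPM in sham (SD, n = 3 each). Its log2 fold change was 0.15, with a 95% interval of -0.16 to 0.46 and an edgeR adjusted p of 0.892. In deposited RPM its groups overlapped, at 30.8, 29.8 and 33.3 in CCI-ION against 31.2, 38.2 and 38.5 in sham libraries. Under that scaling its log2 fold change was -0.20, and the median of all tested miRNAs was -0.34. miR-195-5p, from the same cluster, had a log2 fold change of 0.06 with an interval of -0.26 to 0.38 (edgeR adjusted p = 0.947). The count of miR-195-5p was 3.61, 3.73 and 3.58 times that of miR-497-5p in CCI-ION libraries and 3.70, 3.88 and 4.09 times in sham libraries. This ratio had the narrowest log2 range of the 7 ratios compared and was lower in CCI-ION in 3 of 3 same-numbered pairs. Its log2 difference of -0.09 had a two-sided exact permutation p of 0.2 (1 after adjustment over 7 ratios).

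miR-16-5p had means of 1199 ± 116 CPM in CCI-ION and 1155 ± 129 CPM in sham (SD, n = 3 each). Its log2 fold change was 0.05 with a 95% interval of -0.29 to 0.40 (edgeR adjusted p = 0.947). This interval covers the spread between libraries on the CPM scale, not the choice of scale. With the block the interval was -0.15 to 0.26. The fold change was -0.003 without CCI-ION library 2 and -0.04 without sham library 1. In deposited RPM it had 518, 584 and 646 in CCI-ION and 558, 796 and 805 in sham libraries. There the groups overlapped only through sham library 1, and the log2 fold change was -0.30, close to the -0.34 of the median miRNA under that scaling. Its cluster partner miR-15b-5p had 33.7, 43.1 and 30.4 CPM in CCI-ION libraries and 35.6, 30.3 and 27.0 CPM in sham libraries, with overlap and a log2 fold change of 0.20 (interval -0.25 to 0.65), which was 0.06 without CCI-ION library 2 and 0.32 without CCI-ION library 3. Reads of miR-15b-5p were 0.0311, 0.0328 and 0.0254 of those of miR-16-5p in CCI-ION libraries and 0.0354, 0.0246 and 0.0221 in sham libraries. The log2 difference of this ratio was 0.14 (two-sided exact permutation p = 0.6), and it was 0.004 without sham library 3. In the human and mouse genomes miR-16-5p also comes from a precursor beside miR-15a, and a mature count does not say which precursor was the source.

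The 2 members on the X chromosome differed in how steady they were. miR-322-5p, the rodent counterpart of human miR-424, had 30.9, 59.5 and 32.6 CPM in CCI-ION libraries and 22.6, 40.5 and 42.7 CPM in sham libraries. The values overlapped widely, with library 2 highest in CCI-ION and library 1 lowest in both groups. Its log2 fold change was 0.22 with the broad interval of -0.58 to 1.01 (edgeR adjusted p = 0.946), and it was -0.13 without CCI-ION library 2 and -0.03 without sham library 1. Its opposite arm miR-322-3p had 81.0, 78.8 and 54.6 CPM in CCI-ION libraries and 70.3, 66.9 and 72.1 CPM in sham libraries, a log2 fold change of 0.04 (interval -0.40 to 0.47) that was -0.07 without CCI-ION library 1 and -0.03 without CCI-ION library 2. The count of miR-322-5p was 0.734, 1.54 and 0.900 times that of miR-503-5p in CCI-ION libraries and 0.784, 1.28 and 1.38 times in sham libraries. This ratio was lowest in library 1 of either group, and its log2 difference between groups was -0.15 (two-sided exact permutation p = 0.9), turning to 0.08 without CCI-ION library 1 and to 0.004 without sham library 3.

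The arm balance of miR-322 was opposite to that of the other 3 precursors compared. The hairpin of miR-322 is shown because both of its arms were recovered, the 5p arm first and the 3p arm second, each in capitals.
miR-322 hairpin: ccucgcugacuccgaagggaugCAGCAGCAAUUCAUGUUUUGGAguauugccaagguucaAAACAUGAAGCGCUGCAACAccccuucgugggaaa
In all 6 libraries the 3p arm had more counts than the seed-bearing 5p arm. The 5p count was 0.382, 0.755 and 0.596 of the 3p count in CCI-ION libraries and 0.322, 0.606 and 0.592 in sham libraries. Both libraries numbered 1 were lowest, and the groups overlapped. The ratio was higher in CCI-ION in 3 of 3 same-numbered pairs, with a log2 difference of 0.19 (two-sided exact permutation p = 0.6, and 0.25 by exact sign-flip over the pairs, the smallest possible). The difference was -0.03 without CCI-ION library 2 and -0.11 without sham library 1.

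In miR-503, miR-195 and miR-15b the 5p arm had more counts than the 3p arm in 6 of 6 libraries. For miR-503 the 5p arm had 2.08, 1.18 and 1.21 times the count of the 3p arm in CCI-ION libraries and 1.28, 1.71 and 1.24 times in sham libraries. For miR-195 it had 2.25, 2.79 and 1.89 times the 3p count in CCI-ION and 2.38, 2.53 and 2.29 times in sham libraries. For miR-15b it had 5.08, 3.83 and 3.42 times the 3p count in CCI-ION and 5.04, 3.73 and 4.14 times in sham libraries. Here both libraries numbered 1 were highest, opposite to miR-322. The groups overlapped for each of these 3 ratios, with log2 differences of 0.04, -0.07 and -0.07 and two-sided exact permutation p-values of 1, 0.7 and 0.8. Their signs rested on single libraries: the difference for miR-503 was -0.22 without CCI-ION library 1, -0.02 without sham library 1 and -0.04 without sham library 3, that for miR-195 was 0.06 without CCI-ION library 3, and that for miR-15b was 0.05 without CCI-ION library 3 and 0.05 without sham library 1. With 3 libraries against 3, the smallest p these tests can give is 0.1, and after adjustment over 7 ratios each was 1. The 3p arms of miR-195, miR-503 and miR-15b had log2 fold changes of 0.14, 0.33 and 0.29 (edgeR adjusted p = 0.912, 0.789 and 0.887). Leaving out 1 library moved them between 0.05 (without CCI-ION library 3) and 0.24 (without CCI-ION library 2) for miR-195-3p. For miR-503-3p the bounds were 0.20 (without CCI-ION library 2) and 0.51 (without CCI-ION library 1), and for miR-15b-3p 0.11 and 0.47 (without the same libraries). miR-16 and miR-497 were not compared, since their 3p counts were under 10.

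**Figure D3:**
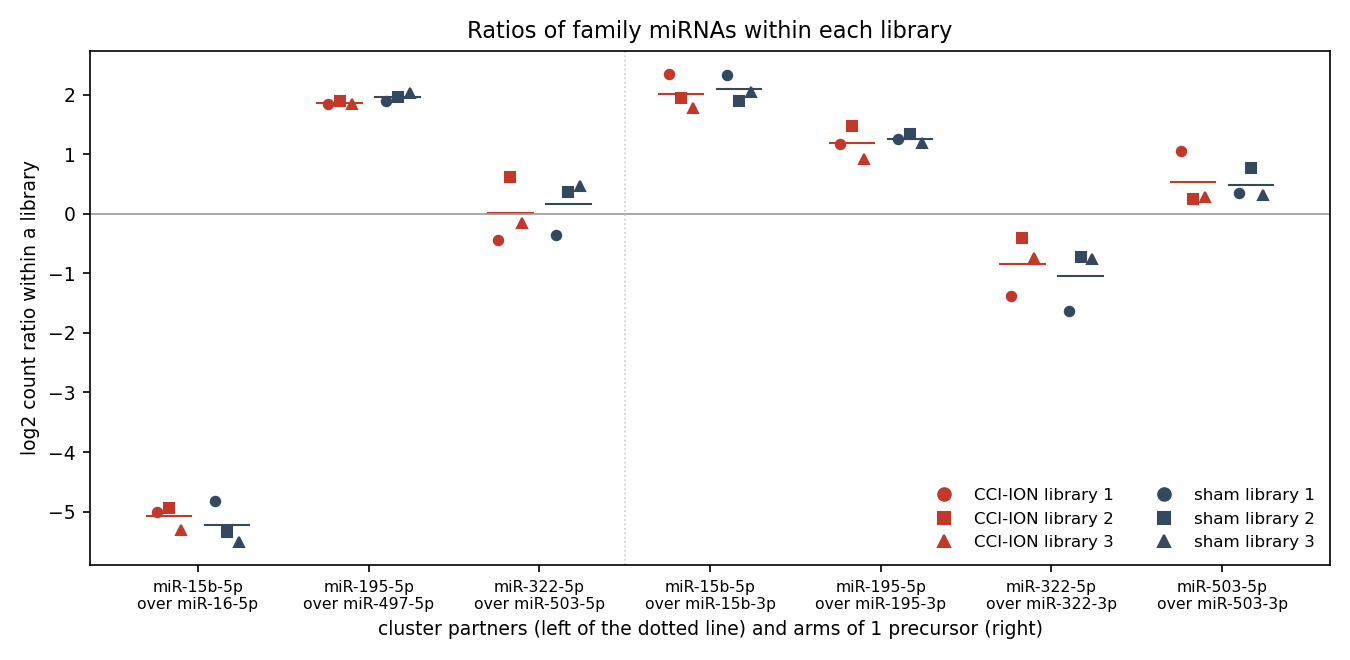
Log2 count ratios within each library, for partners of 1 cluster (left of the dotted line) and for the 5p over the 3p arm of 1 precursor (right), with a point per library, CCI-ION left and sham right of each tick, and a bar at the group mean. The arm ratio of miR-322 lies below 0 in all 6 libraries and is lowest in both libraries numbered 1, while those of miR-15b, miR-195 and miR-503 lie above 0.

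The neighbours of miR-322 and miR-503 on the X chromosome do not carry the family seed but are made close by on the same strand. All 8 rows (both arms of miR-351, miR-542, miR-450a and miR-450b) were tested. Without the block edgeR called 0 of 8, and with it 1 of 8, higher, against 11.7% of all tested miRNAs. That one was miR-351-5p, a relative of miR-125 found in rodents. It had 601, 622 and 628 CPM in CCI-ION libraries and 436, 441 and 496 CPM in sham libraries. The groups did not overlap. The means were 617 ± 14.1 CPM in CCI-ION and 458 ± 32.8 CPM in sham (SD, n = 3 each), and the log2 fold change was 0.43 ± 0.13. The edgeR adjusted p was 0.316 without the block and 0.00181 with it, where DESeq2 gave 0.000491 and limma-voom 0.0223. The call with the block was lost without both libraries numbered 3 (edgeR adjusted p = 0.181). In deposited RPM the levels overlapped, at 288, 276 and 339 in CCI-ION against 242, 285 and 326 in sham libraries. Under that scaling with the block its log2 fold change was 0.09 (edgeR adjusted p = 0.666), and the median of all tested miRNAs was -0.35. On the CPM scale miR-503-5p and miR-351-5p, whose precursors lie 659 bases apart, each had all 3 CCI-ION libraries above all 3 sham libraries. miR-322-5p did not, and the 3p arms of miR-503 and miR-351 overlapped between groups. miR-503-3p had 20.3, 32.7 and 29.9 CPM in CCI-ION libraries and 22.6, 18.4 and 24.8 CPM in sham libraries. Of all tested miRNAs, 6.7% were higher in CCI-ION without overlap. A joint change of these precursors was not tested.

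**Figure D4:**
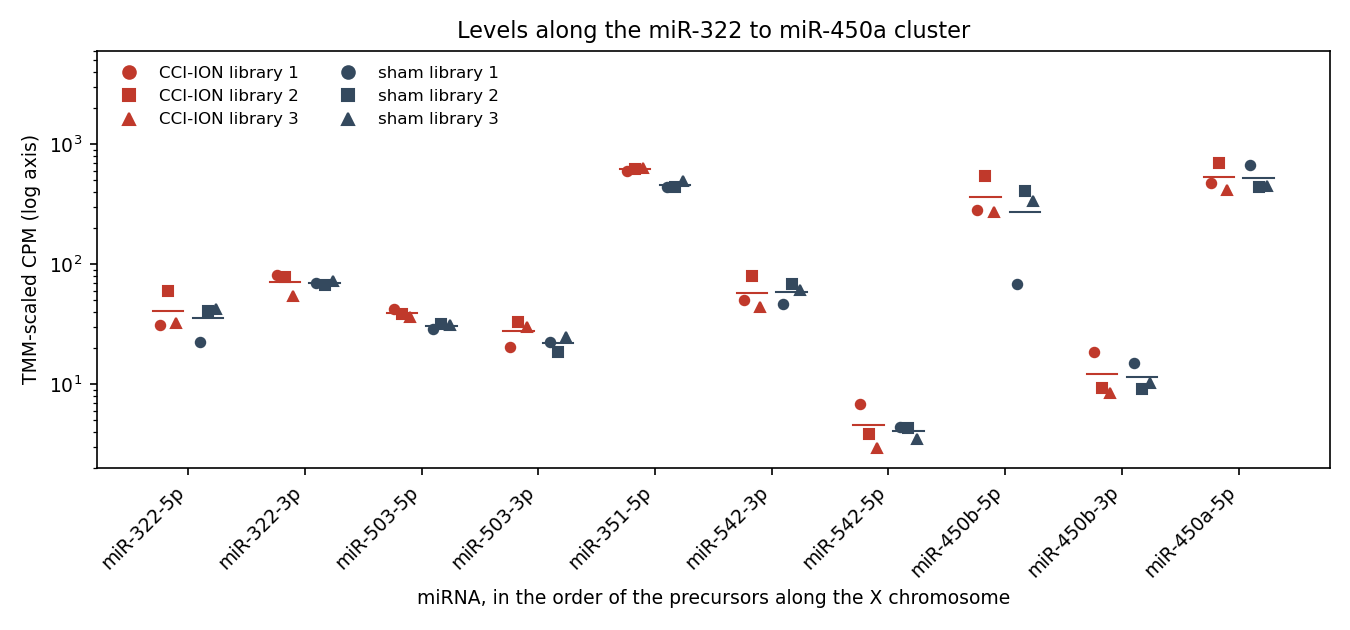
Levels along the X-chromosome cluster (TMM-scaled CPM, log axis) in the order of the precursors, with a point per library, CCI-ION left and sham right of each tick, and a bar at the group mean. miR-351-5p and miR-503-5p show no overlap between groups, and miR-450b-5p is far lower in sham library 1 (68.5 CPM) than in the others. The 3p arms of miR-351 and miR-450a, at under 4 CPM, are not drawn.

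The other 7 rows of the cluster overlapped between groups. miR-450b-5p had 283, 538 and 274 CPM in CCI-ION libraries and 68.5, 409 and 334 CPM in sham libraries, so that sham library 1 stood far below the rest. miR-450a-5p, which differs from it at 1 of 21 bases, had 473, 696 and 413 CPM in CCI-ION libraries and 671, 437 and 450 CPM in sham libraries. Sham library 1 was the lowest for miR-450b-5p and the second highest for miR-450a-5p. The 2 rows are uncertain because of their close sequences. Their edgeR adjusted p-values were 0.936 and 0.993.

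A further pair of miRNAs holds AGCAGCA at bases 1 to 7, a shift of 1 base, and so has a different seed. They are printed because the shift shows how near their ends are to the family's.
rno-miR-103-3p: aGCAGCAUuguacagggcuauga
rno-miR-107-3p: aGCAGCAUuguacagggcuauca
miR-103-3p averaged 3298 ± 108 CPM in CCI-ION and 3279 ± 68.8 CPM in sham, and miR-107-3p 255 ± 98.8 and 275 ± 83.0 CPM in the same order of groups (SD, n = 3 each). Their log2 fold changes were 0.01 and -0.11 (edgeR adjusted p = 0.993 and 0.969), and the 2 rows are uncertain because they differ at 1 of 23 bases.

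The members also differed in how alike their profiles were over the 6 libraries. Likeness was measured as the root mean square difference between log2 CPM profiles, each centred on its own mean, over the 6 libraries. Of all pairs of tested members, the cluster partners miR-195-5p and miR-497-5p were closest (0.065), followed by miR-16-5p and miR-195-5p (0.079), which come from different chromosomes and are close in sequence. The cluster partners miR-15b-5p and miR-16-5p (0.24) and miR-322-5p and miR-503-5p (0.41) were farther apart, and so were the arms of miR-322 (0.42). Of 452 tested miRNAs outside the family, those most like miR-16-5p were miR-192-5p (0.062), miR-411-5p (0.072) and miR-17-5p (0.077), where the median over the 452 was 0.29. Most like miR-195-5p were miR-28-3p (0.054), miR-22-5p (0.074) and miR-191a-5p (0.076), with a median of 0.28. Most like miR-322-5p were miR-143-3p (0.20), miR-377-3p (0.22) and its cluster neighbour miR-542-3p (0.22), with a median of 0.50. All these profiles share the same 6 libraries, their depth and their scaling.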

How the data were processed

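The authors deposited raw counts for 650 mature miRNAs and 1 file of RPM values per library. Adapters and reads were handled with cutadapt 1.14 and Bowtie 1.1.1 on build rn6, per the submitters' processing notes. For the counter, annotation and mismatches allowed, no statement was found in the labels. The deposited RPM values gave whole reads for 100% of values (within 0.01 read), equal to the counts, so edgeR on those reads called the same number of miRNAs (3). RPM totals exceed the miRNA counts, which were 49.0% ± 5.87 of them in CCI-ION and 61.8% ± 8.25 in sham libraries (n = 3 each), and what they count is not stated.

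Counts were tested with edgeR 4.0.16 (quasi-likelihood, robust, TMM, filterByExpr keeping 463 rows, Benjamini-Hochberg adjusted p under 0.05) in R 4.3.3, with DESeq2 1.42.0 and limma-voom (limma 3.58.1) as alternatives. Intervals are 95%, from the fit's SE. Floors of 3 counts cover counting error only. Libraries of 1 group always differed by more than sampling noise. Same-numbered libraries, by title, correlated in their deviations from the group mean at 0.664, 0.591 and 0.457, so the number was taken to pair them. Libraries with different numbers gave -0.614 to 0.166. Deviations within a group sum to 0, so these values depend on each other. What the number marks is not given. The fit with the block left 2 residual degrees of freedom, against 4 without it. Ratios used two-sided exact permutation tests. Named miRNAs are all members, rows with the same or a shifted seed, the X-cluster neighbours and the 3 nearest profiles of miR-16-5p, miR-195-5p and miR-322-5p. Marker lists were neuronal, muscle, leukocyte, erythroid, fibroblast and mural, glial and endothelial. The members and lists were chosen with earlier results of these data known.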

Additional observations from a re-analysis of the deposited data

How the results depend on the processing

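No setting called any of the 11 tested members. The number called among all miRNAs, 3, became 9 with DESeq2, 6 with the totals behind the RPM, 6 without a filter on low counts, 54 with the replicate block, 44 with DESeq2 and the block, 39 with limma-voom and the block, and 158 with the RPM totals and the block. Leaving out single libraries gave 1 to 7, and leaving out a same-numbered pair with the block gave 45, 31 and 5 (without numbers 1, 2 and 3). Among the members and named neighbours the block changed only the call of miR-351-5p (log2 fold change 0.43, and 0.44 in DESeq2 with the block), and for the 7 ratios the paired sign-flip p-values were 0.25 to 1. The cause of these shifts was not tested.

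The scale of RPM totals turned log2 fold changes negative: miR-16-5p -0.30 (-0.29 with the block), miR-195-5p -0.30 (-0.29), miR-195-3p -0.20 (-0.21), miR-322-3p -0.33 (-0.33), miR-322-5p -0.18 (-0.14), miR-497-5p -0.20 (-0.19), miR-15b-5p -0.15 (-0.15), miR-15b-3p -0.061 (-0.078), miR-503-3p -0.020 (-0.040), miR-450a-5p -0.33 (-0.33) and miR-103-3p -0.34 (-0.34). Without a filter miR-450a-5p was -0.0046 and miR-103-3p -0.023. miR-107-3p was called lower under the RPM totals with the block (-0.49, edgeR adjusted p = 0.0242). The family's share of counts, 0.00823 percentage points higher in CCI-ION, differed by -0.0189 points when taken of the RPM total.

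Without the pair numbered 1, with the block, miR-322-3p was -0.082, miR-103-3p -0.032 and miR-107-3p 0.14. Without the pair numbered 2, miR-322-3p was -0.082 and miR-450a-5p -0.31. Leaving out single libraries moved the log2 ratio difference of miR-15b-5p over miR-16-5p between 0.0038 and 0.34, of miR-195-5p over miR-497-5p between -0.13 and -0.057, of miR-322-5p over miR-503-5p between -0.46 and 0.076, and of the arms between -0.24 and 0.047 (miR-15b), -0.22 and 0.062 (miR-195), -0.11 and 0.46 (miR-322) and -0.22 and 0.19 (miR-503). The share difference moved between 0.0027 and 0.0124 points. Fold changes moved between -0.036 and 0.12 for miR-16-5p, -0.13 and 0.38 for miR-322-5p, -0.067 and 0.21 for miR-322-3p, -0.22 and 0.25 for miR-450a-5p, -0.026 and 0.85 for miR-450b-5p, -0.020 and 0.039 for miR-103-3p, and -0.41 and 0.15 for miR-107-3p. The 8 other tested members kept a value above 0 without any single library. Low counts left miR-16-3p and miR-497-3p untested, and miR-15a-5p had 7 to 17 counts a library.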
